A study of Arabidopsis thaliana with 8 samples.

Results

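The genes described here are AT2G38900, which codes for a serine protease inhibitor of the potato inhibitor I type, and AT2G21430, which codes for a cysteine protease of the papain family. They are 2 genes of the 13513 probe sets with 1 listed gene, out of 22746 probe sets tested, and each was measured by 1 probe set. Both were chosen because they were among the largest falls in the ttg1 mutant, so their own difference between genotypes is given as a description with no test. They were measured on Affymetrix ATH1 arrays in 4 biological replicates of ttg1 mutant developing seeds and 4 of wild type Ler (Landsberg erecta) developing seeds, with embryos between the globular and walking-stick stages, taken out of their siliques. The labels give the mutant only as ttg1 and do not say which allele it carries, whether seeds of several plants were pooled, or how old the seeds were in days. No probe set with 1 listed gene stood for TTG1 itself, so the mutated gene gave no check of the labels.

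TTG1 is a WD40-repeat protein that works with MYB and bHLH transcription factors, and in the seed it is needed for the pigment and the mucilage of the seed coat. Potato type I inhibitors are small proteins that bind like a substrate in the active site of chymotrypsin-like and subtilisin-like serine proteases and block them. In potato and tomato they are known as proteins of wound and insect defence. Papain family proteases are made as inactive proenzymes whose prodomain covers the active site, and many of them work in the vacuole, where plant cells break down and process proteins. AT2G21430 belongs to the RD19 subfamily, which is related to the animal cathepsin F and is named after a drought-responsive gene. In developing seeds, vacuolar proteases process storage proteins, and proteases also act in the programmed death of seed coat cells.

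All values are on a log2 scale and relative to the median of their own probe set over the 8 arrays, so a difference of 1 is 2-fold and no value gives an absolute level. The inhibitor gene AT2G38900 had values of -3.83, -4.35, -4.12 and -3.89 in ttg1 replicates 1 to 4, against 4.15, 4.03, 3.83 and 4.16 in Ler replicates 1 to 4. The groups lay far apart, with 7.66 between the highest ttg1 array and the lowest Ler array. The means were -4.05 ± 0.24 in ttg1 and 4.04 ± 0.15 in Ler (SD, n = 4 each), a difference of -8.09, or 272-fold lower in ttg1. The values in the 2 groups are nearly mirror images because the zero of each probe set lies midway between the 4th and 5th of its 8 values, here the highest ttg1 and the lowest Ler value.

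The protease gene AT2G21430 had values of -2.58, -2.55, -1.98 and -2.10 in ttg1 replicates 1 to 4, against 1.998, 1.98, 2.22 and 2.04 in Ler replicates 1 to 4. Again no ttg1 array came near a Ler array, and the gap between the groups was 3.96. The means were -2.30 ± 0.31 in ttg1 and 2.06 ± 0.11 in Ler (SD, n = 4 each), a difference of -4.36, or 20.5-fold lower in ttg1. The plot of both genes by array shows that replicates of a genotype lie close together beside the distance between the genotypes.

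**Figure D1:**
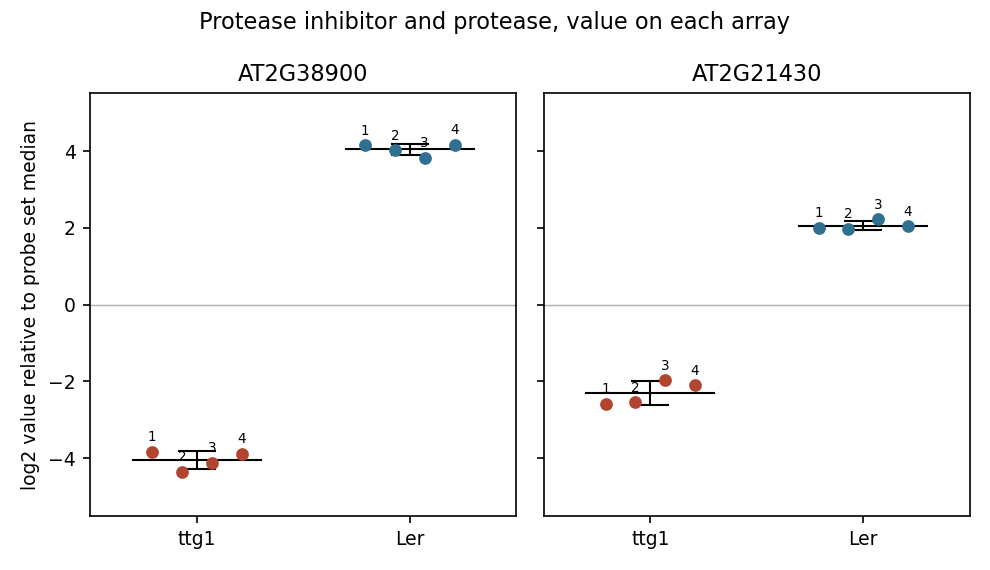
Log2 value relative to the probe set median (y axis) of AT2G38900 and AT2G21430 on each array, ttg1 left and Ler right; points are arrays numbered by replicate, long lines are means and bars are 1 SD. The means are -4.05 in ttg1 and 4.04 in Ler for AT2G38900, and -2.30 in ttg1 and 2.06 in Ler for AT2G21430.

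AT2G38900 held rank 1 by size of fall among all 22746 probe sets tested, and rank 1 among those with 1 listed gene. Just after it came AT1G56100, with a difference of -7.65. AT2G21430 held rank 16 among all probe sets and rank 8 among those with 1 listed gene, between AT3G49270 at -4.82 and AT1G09550 at -4.19. In all, 5.72% of probe sets were called in limma at an adjusted p under 0.05, with 3.96% lower and 1.76% higher in ttg1, and in 8.33% all 4 ttg1 values lay below all 4 Ler values. Both genes belong to these sets by the way they were chosen, so nothing is read from that.

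Within the genotypes, the spread of these genes was above the median of all probe sets, except for AT2G21430 in Ler. In ttg1 the SD of AT2G38900 was 0.24 and that of AT2G21430 0.31, against a median SD of 0.165 over all probe sets, and 76.0% and 87.8% of probe sets had a smaller SD. In Ler the SD of AT2G38900 was 0.15 and that of AT2G21430 0.11, against a median of 0.119, and 68.7% and 45.5% of probe sets had a smaller SD. For AT2G38900 the gap between the groups was 14.6 times the range of the wider group, and for AT2G21430 it was 6.58 times that range.

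These arrays hold whole seeds, and fewer cells of a type and less RNA per cell cannot be told apart in them. Of the 10 seed coat genes listed as markers, which make pigment or mucilage, 5 were measured by name and all 5 were called lower in ttg1 in limma, with a median difference of -2.39. Their mean lay between -1.90 and -1.76 in ttg1 and between 1.56 and 1.77 in Ler. Single differences ran from -6.99 for DFR and -6.43 for BAN to -0.43 for AT3G10320. AT2G38900 and AT2G21430 were chosen for their falls, and pigment and mucilage need TTG1, so nothing is read from the shared direction. None of the 5 measured embryo storage genes, 3 endosperm genes and 4 silique wall and green tissue genes was called in limma, and 1, 0 and 2 of them had an unadjusted p under 0.05. The endosperm mean lay between -0.07 and 0.25 in ttg1 and between -0.05 and 0.01 in Ler, and the silique wall and green tissue mean between -0.29 and 0.46 in ttg1 and between -0.18 and 0.05 in Ler. Because levels are not in the table, the tissue itself could not be checked against its markers, and the part of cell type shares in the 2 differences was not tested.

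The mean of the embryo storage genes, which are switched on as seeds fill, lay between -0.36 and 1.001 in ttg1 and between -0.53 and 1.18 in Ler. It was highest in replicate 4 of both genotypes, at 1.001 in ttg1 and 1.18 in Ler, and lowest in replicate 1 of both, at -0.36 in ttg1 and -0.53 in Ler. Over the same arrays AT2G38900 spanned 0.525 in ttg1 and 0.334 in Ler, and AT2G21430 spanned 0.601 in ttg1 and 0.245 in Ler. Replicate 4 was neither the highest nor the lowest array for AT2G21430 in either genotype, whereas in Ler it was the highest for AT2G38900. In ttg1, replicate 1 was the lowest array for AT2G21430, at -2.58, and the highest for AT2G38900, at -3.83. In Ler, replicate 1 was neither the highest nor the lowest for either gene. Whether either gene follows the storage genes was not tested.

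The measured relatives of the inhibitor, taken by family, did not show a fall that passed the test in the main limma fit. Sequences were not compared, so which relatives are closest is not known here, and the relatives not measured by name could not be followed. Of the other 5 genes on the potato type I inhibitor list, 2 were measured by name, and neither was called in limma, although both had an unadjusted p under 0.05. AT2G38870, which lies 4 gene positions from AT2G38900 on chromosome 2, had values of -0.26, 0.07, -0.12 and -0.25 in ttg1 and 0.11, 0.28, -0.07 and 0.11 in Ler. The groups overlapped, and the difference was -0.25 with a 95% interval from -0.48 to -0.02 and an adjusted p of 0.189 in limma. AT3G46860 had values of -0.89, -0.44, 0.11 and -1.08 in ttg1 and 1.71, 1.21, -0.05 and 0.05 in Ler. Here Ler split into 2 high and 2 low arrays, and ttg1 replicate 3 lay above both low Ler arrays. The difference of AT3G46860 was -1.31 with a 95% interval from -2.17 to -0.44 and an adjusted p of 0.0793 in limma, and with the replicate number as a block the adjusted p was 0.0429. Both intervals end well short of the -8.09 of AT2G38900, a gap that was not tested because AT2G38900 was chosen for its fall.

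The measured relatives of the protease, again taken by family and not by sequence, were likewise not called. Of the other 3 genes of the RD19 subfamily, 2 were measured by name, and neither had an unadjusted p under 0.05 in limma. AT4G16190 had values of -0.30, 0.39, 0.38 and -0.29 in ttg1 and 0.01, -0.01, 0.21 and -0.03 in Ler. Its difference was 0.00 with a 95% interval from -0.37 to 0.37 (adjusted p 0.997 in limma), and its sign changed with the centring of the arrays. AT3G54940 had values of -0.20, 0.24, -0.45 and 1.16 in ttg1 and -1.11, -0.24, 0.26 and 0.20 in Ler. The widest value of AT3G54940 was in ttg1 replicate 4, the ttg1 array with the highest embryo storage mean, and the lowest was in Ler replicate 1, the Ler array with the lowest storage mean. The difference of AT3G54940 was 0.41 with a 95% interval from -0.40 to 1.21 and an adjusted p of 0.532 in limma.

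**Figure D2:**
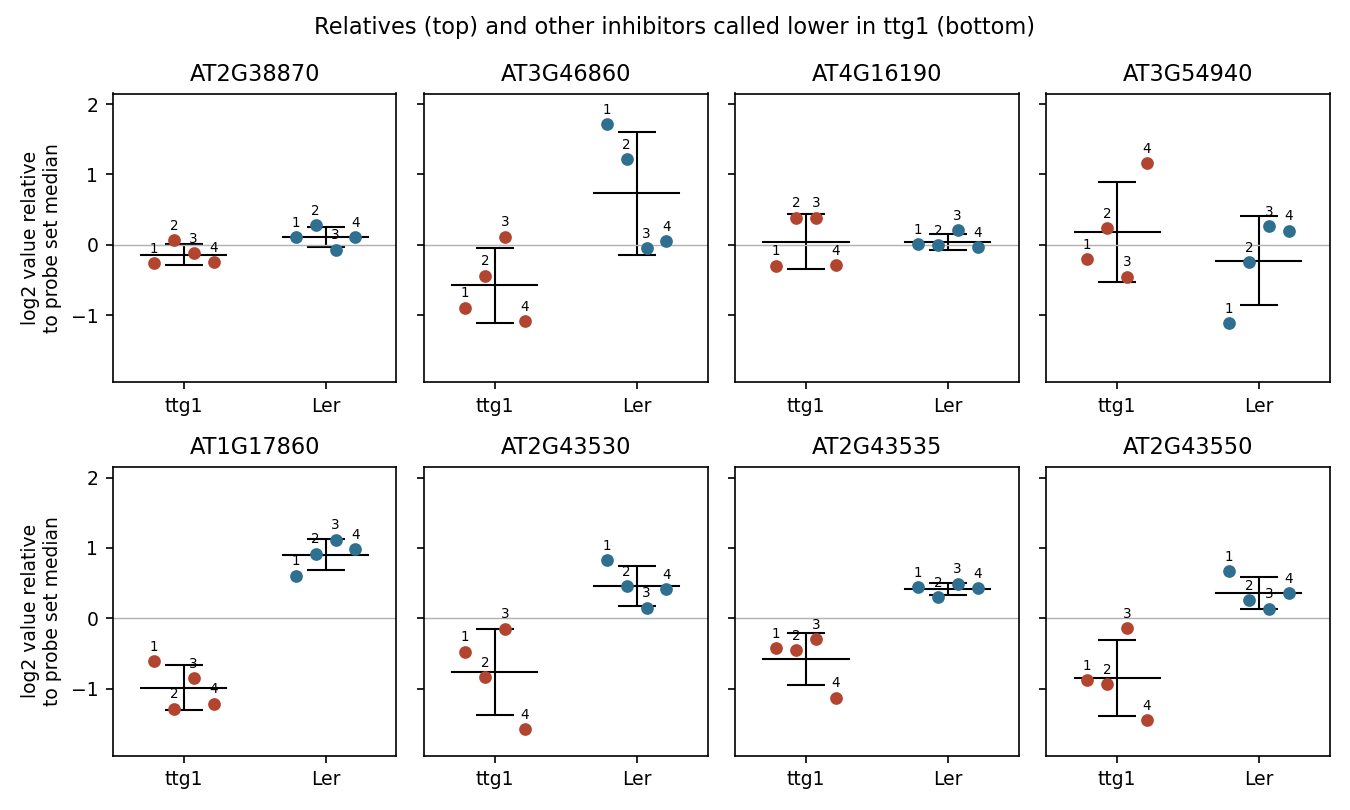
Log2 value relative to the probe set median (y axis) in ttg1 (left) and Ler (right) for relatives of AT2G38900 and AT2G21430 (top row) and for 4 other inhibitor genes called lower in ttg1 (bottom row); points are arrays numbered by replicate, long lines are means and bars are 1 SD. The groups overlap in every gene of the top row and in none of the bottom row.

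Other inhibitor families did hold genes that fell in ttg1. Over 5 inhibitor lists, with AT2G38900 left out, 17 genes were measured by name, of which 4 fell and none rose in limma, where 3.96% of all probe sets were called lower and 1.76% higher. At an unadjusted p under 0.05, 9 were lower and 1 was higher. The median difference of the 17 was -0.25, against 0.03 over all probe sets. In 8 of the 17 the groups did not overlap, which was so for 14.8% of all probe sets.

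The widest fall among them was that of AT1G17860, a Kunitz inhibitor, a family of larger inhibitors known for blocking trypsin-like proteases. It had values of -0.61, -1.29, -0.85 and -1.21 in ttg1 and 0.61, 0.92, 1.12 and 0.98 in Ler, with no overlap. The difference was -1.89 ± 0.16 (SE, 4 arrays per group), or 3.72-fold lower in ttg1, with an adjusted p of 4.15e-05 in limma. The other measured gene of the 7 on the Kunitz list, AT1G72290, had a difference of 0.22 ± 0.11 and was not called.

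Of the 6 small trypsin inhibitor genes of the mustard family type, 4 were measured by name and 3 fell, all of them from 1 cluster of neighbouring locus numbers on chromosome 2. AT2G43530 had values of -0.48, -0.83, -0.15 and -1.58 in ttg1 and 0.82, 0.46, 0.15 and 0.41 in Ler. The lowest array was ttg1 replicate 4, and the nearest ones of the 2 groups were replicate 3 of each. AT2G43550 had values of -0.88, -0.94, -0.14 and -1.45 in ttg1 and 0.67, 0.26, 0.14 and 0.36 in Ler, with the same arrays at the edges. AT2G43535 had values of -0.42, -0.45, -0.30 and -1.12 in ttg1 and 0.44, 0.30, 0.49 and 0.43 in Ler. The differences were -1.22 ± 0.26 for AT2G43530, -1.21 ± 0.23 for AT2G43550 and -0.99 ± 0.16 for AT2G43535 (SE), with adjusted p-values of 0.0227, 0.0121 and 0.00447 in limma. Without Ler replicate 2 the adjusted p of AT2G43530 was 0.0727, without Ler replicate 1 it was 0.0712 and without ttg1 replicate 2 it was 0.0538. Without ttg1 replicates 1 and 4 together, the adjusted p of AT2G43550 was 0.0523. Genes of such a cluster can be alike in sequence, so that 1 transcript may bind to several probe sets; this was not tested. AT1G47540, which lies elsewhere, had a difference of 0.12 ± 0.35.

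Cystatins, which inhibit papain family proteases such as AT2G21430, were not called in the main limma fit. Under other settings 2 of them passed the threshold. Of 7 genes, 3 were measured by name, all with a difference below 0 and 2 with an unadjusted p under 0.05 in limma. CYS1 (AT5G12140) had a difference of -0.37 ± 0.10 (adjusted p 0.065) and AT5G05110 of -0.54 ± 0.18 (adjusted p 0.116). In AT5G05110 ttg1 replicate 4 lay at -1.01, while the other ttg1 arrays lay between -0.14 and -0.11. Without that array the difference was smaller, at -0.32, and so was the adjusted p, at 0.0521 in limma. Both genes passed as lower after quantile normalization, with adjusted p-values of 0.0449 for CYS1 and 0.0268 for AT5G05110 in limma, and with the replicate number as a block, at 0.0491 and 0.0447. Of 10 serpins, which trap proteases by a large change of their own shape, 6 were measured and none was called, with 1 higher and 1 lower at an unadjusted p under 0.05. SERPIN1 (AT1G47710), known as an inhibitor of the papain family protease RD21, had a difference of -0.23 ± 0.08 (adjusted p 0.136), and AT1G62170 of 0.27 ± 0.08 (adjusted p 0.0779).

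Papain family proteases other than AT2G21430 were not called in either direction in the main limma fit, though AT3G19400 and AT1G29080 passed as lower under other settings. Of 27 genes listed besides the RD19 subfamily, 15 were measured by name, and 5 of them were lower and none higher at an unadjusted p under 0.05 in limma. Their differences lay between -0.72 and 0.09 with a median of -0.07, against 0.03 over all probe sets. The lowest difference was that of AT3G19400, at -0.72 ± 0.25 (adjusted p 0.119), where ttg1 replicate 4 lay at -1.48. Its adjusted p in limma was 0.0354 after quantile normalization and 0.0424 with the replicate number as a block, and without ttg1 replicate 4 its difference was -0.42 (adjusted p 0.0702). AT1G29080 had the smallest adjusted p, 0.0545, with a difference of -0.33 ± 0.09. Its adjusted p in limma was 0.0183 without ttg1 replicate 1, 0.0239 without ttg1 replicates 1 and 4 together, 0.0151 with array weights and 0.0487 with arrays centred on their medians. The -4.36 of AT2G21430, which was chosen for its size, lies outside that range.

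Proteases of the vacuole outside the papain family were not called either. The 4 vacuolar processing enzymes, cysteine proteases that mature vacuolar and storage proteins, had differences between -0.22 and 0.13, and none had an unadjusted p under 0.05 in limma. DELTA-VPE (AT3G20210), known for its part in the cell death of inner seed coat layers, had values of -0.26, -0.03, 0.08 and -0.49 in ttg1 and 0.12, 0.03, -0.04 and 0.11 in Ler. Its groups overlapped, and its difference was -0.22 ± 0.12 (adjusted p 0.293). ALPHA-VPE (AT2G25940) had a difference of -0.18 ± 0.17. Of the 3 phytepsin-type aspartic proteases, AT4G04460 had a difference of -0.28 ± 0.21 and AT1G62290 of 0.36 ± 0.37, with adjusted p-values of 0.461 and 0.584 and no unadjusted p under 0.05. The 9 metacaspases had no probe set with 1 listed gene and were not analysed here.

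Subtilases, the plant subtilisin-like serine proteases and a class that potato type I inhibitors can bind, held the only called proteases on the 6 protease lists. Of the 53 genes on the list, 43 were measured by name, and 4 fell and none rose in limma, or 9.30% lower against 3.96% of all probe sets. The list leaves out SBT3.12 (AT4G21326), a subtilase that rose by 0.71 ± 0.13 (SE, adjusted p 0.0101 in limma). At an unadjusted p under 0.05, 9 were lower and 4 higher. The median difference was 0.05, against 0.03 over all probe sets.

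SBT5.4 (AT5G59810) had values of -0.63, -0.37, -0.59 and -0.24 in ttg1 and 0.37, 0.44, 0.24 and 0.49 in Ler. Its difference was -0.84 ± 0.11 (SE), or 1.79-fold lower, with an adjusted p of 0.000881 in limma. AT4G15040 had values of -0.70, -0.85, -0.23 and -1.09 in ttg1 and 0.35, 0.25, 0.50 and 0.23 in Ler, a difference of -1.05 ± 0.16 and an adjusted p of 0.00319. In both genes the groups stood apart on all arrays. SBT4.13 (AT5G59120) had a difference of -1.29 ± 0.30, but its ttg1 values ran from -1.57 in replicate 1 to -0.11 in replicate 3. Its adjusted p in limma was 0.0339, and it was above the threshold without any of 6 single arrays, at 0.0599 to 0.114. These were ttg1 replicates 1 and 4 and each of the 4 Ler replicates. Without ttg1 replicates 1 and 4 together the difference of SBT4.13 was -0.65 (adjusted p 0.0504 in limma). AT5G59100 had a difference of -0.47 ± 0.11 and an adjusted p of 0.0368, and with 7 of 8 single arrays left out, all but ttg1 replicate 3, it did not pass.

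**Figure D3:**
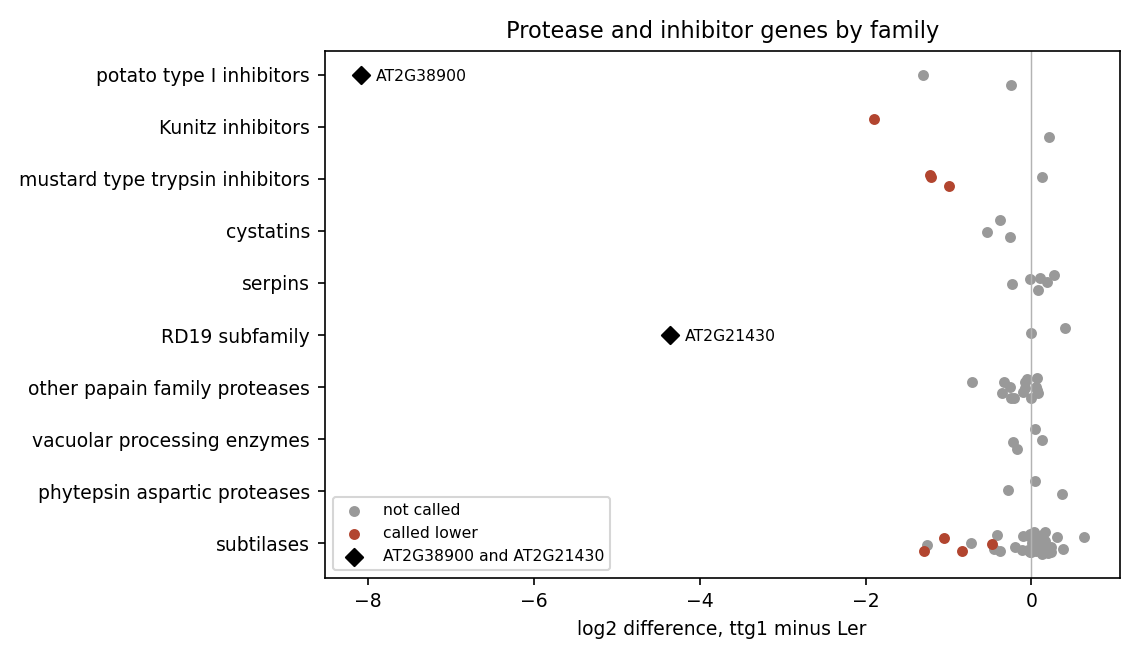
Log2 difference ttg1 minus Ler (x axis) of each measured gene on 10 lists of protease inhibitors and proteases (y axis); grey points were not called, red points were called lower in limma, and black diamonds are AT2G38900 and AT2G21430, which were chosen for their falls. All other genes on these lists lie between -1.89 and 0.63, to the right of both diamonds. SBT3.12, a subtilase called higher, is not on these lists.

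Words in the gene table's synonyms gave 5 further short lists that overlap with those above. Of 4 subtilases found by name, SBT4.13 fell and SBT3.12 (AT4G21326) rose, by 0.71 ± 0.13 (adjusted p 0.0101 in limma). SBT3.12 had values of 0.37, 0.42, 0.29 and 0.10 in ttg1 and -0.10, -0.31, -0.69 and -0.55 in Ler, with no overlap. No gene was called among 6 metalloproteases and other peptidases, 2 protease inhibitors, 1 cysteine protease and 1 aspartic protease found by name; 1, 2, 0 and 0 of them had an unadjusted p under 0.05. Among them, the methionine aminopeptidase gene MAP1C (AT1G13270) had a difference of 0.45 ± 0.16 (adjusted p 0.127) and the matrix metalloproteinase gene MMP (AT1G70170) of -0.14 ± 0.08 (adjusted p 0.318). CP1 (AT4G36880), a papain family protease, had a difference of 0.00 ± 0.13, and APA1 (AT1G11910), an aspartic protease, of 0.04 ± 0.07.

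The genes that lie beside AT2G38900 and AT2G21430 on chromosome 2 were compared to see whether the falls extended along the chromosome. Within 5 gene positions to each side of either gene there were 20 genes, of which 13 were measured by name. Of these, 3 fell and none rose in limma, or 23.1% lower against 3.96% of all probe sets. The neighbouring gene on the same side, in the order of the locus numbers, passed the test at both places.

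Next to AT2G38900, AT2G38890 had values of -0.25, -0.17, -0.41 and -0.25 in ttg1 and 0.17, 0.42, 0.23 and 0.34 in Ler. Its difference was -0.56 ± 0.09 (SE), or 1.47-fold lower, with an adjusted p of 0.00398 in limma. At 5 positions from AT2G38900, YLS5 (AT2G38860), a DJ-1 family gene by its synonym DJ-1E, had values of -0.41, -0.54, -0.60 and -0.73 in ttg1 and 0.96, 1.40, 1.12 and 0.41 in Ler. Its difference was -1.54 ± 0.18, or 2.91-fold lower, with an adjusted p of 0.000459. Between them lies AT2G38870, the relative of AT2G38900 that was not called. The neighbour on the other side, AT2G38905, had a difference of -0.29 ± 0.22 (adjusted p 0.462).

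Next to AT2G21430, AT2G21420 had values of -0.37, -0.40, -0.32 and -0.77 in ttg1 and 0.68, 0.51, 0.40 and 0.32 in Ler. Its difference was -0.94 ± 0.12, or 1.92-fold lower, with an adjusted p of 0.000913 in limma. The neighbour on the other side, AT2G21440, had a difference of 0.14 ± 0.10 (adjusted p 0.420). The other 5 measured genes around AT2G21430 had differences between -0.30 and 0.02 and were not called.

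**Figure D4:**
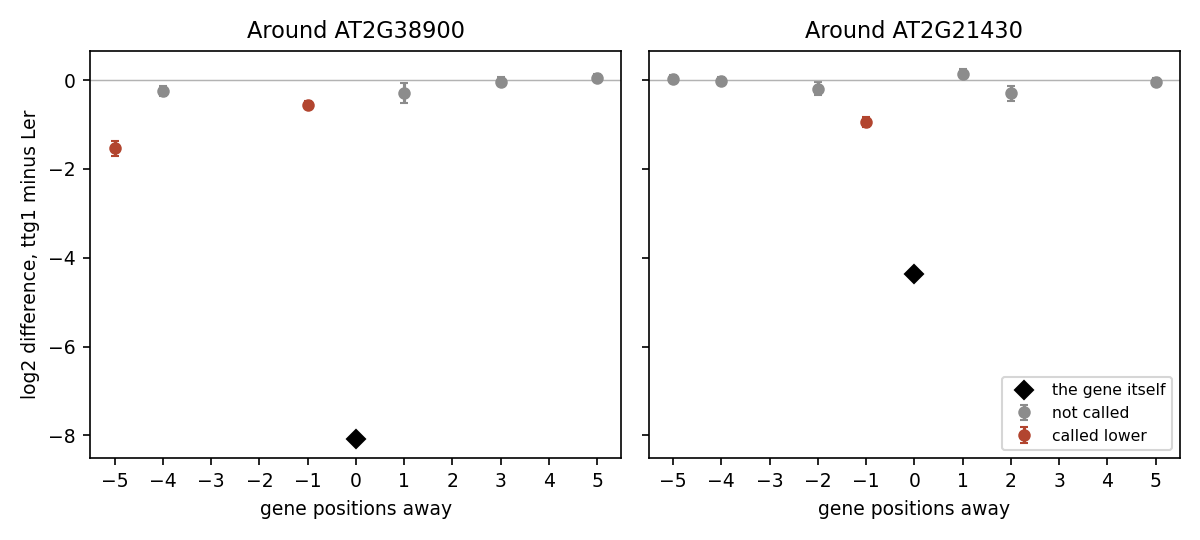
Log2 difference ttg1 minus Ler (y axis) of measured genes up to 5 gene positions (x axis) from AT2G38900 (left) and AT2G21430 (right); black diamonds are the genes themselves, red points were called lower in limma, grey points were not, and bars are 1 SE. The genes at position -1 lie at -0.56 in the left panel and -0.94 in the right panel, and the one at position -5 from AT2G38900 at -1.54. The genes at position 1 were not called in either panel.

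The genes whose values were most like those of AT2G38900 over the 8 arrays were genes that also had a wide difference between the genotypes. By Pearson r the nearest were DFR, the dihydroflavonol reductase of the pigment pathway (r = 0.998), AT1G68470 (0.997), BAN, the anthocyanidin reductase of the same pathway (0.997), AT5G60630 (0.996) and AT2G45750 (0.996). By Euclidean distance, which also counts the size of the fall, they were AT1G56100 (1.51), DFR (1.72), AT1G62070 (2.35), BAN (2.48) and AT5G60630 (3.50). For AT2G21430 the nearest by r were BAN (0.998), AT1G56100 (0.997), AT2G38900 itself (0.995), DFR (0.995) and AT1G61740 (0.994). By distance they were AT3G49270 (1.01), AT1G09550 (1.32), AT2G14900 (1.49), AT5G55320 (1.77) and AT2G32030 (1.81). The points of these correlations share the 8 arrays and the genotype difference by which AT2G38900 and AT2G21430 were chosen.

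Taken as deviations from the mean of their genotype, the values of AT2G38900 and AT2G21430 did not run together. The correlation of the deviations over 8 arrays was r = -0.06. AT2G38900 was lowest in ttg1 replicate 2, by -0.31, and in Ler replicate 3, by -0.21. AT2G21430 was lowest in ttg1 replicate 1, by -0.28, and highest in ttg1 replicate 3, by 0.32, and in Ler replicate 3, by 0.16. BAN, the gene nearest to AT2G21430 by r, had its highest deviations on the same arrays, at 0.27 in ttg1 replicate 3 and 0.23 in Ler replicate 3, and the deviations of BAN and AT2G21430 had r = 0.857. With DFR, of the same pathway as BAN, the deviations of AT2G21430 had r = 0.03. The deviations of AT2G38900 and BAN had r = -0.37, and those of AT2G38900 and DFR had r = 0.15. These values describe 8 arrays with 4 to a genotype, and BAN was picked by its r with AT2G21430.

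**Figure D5:**
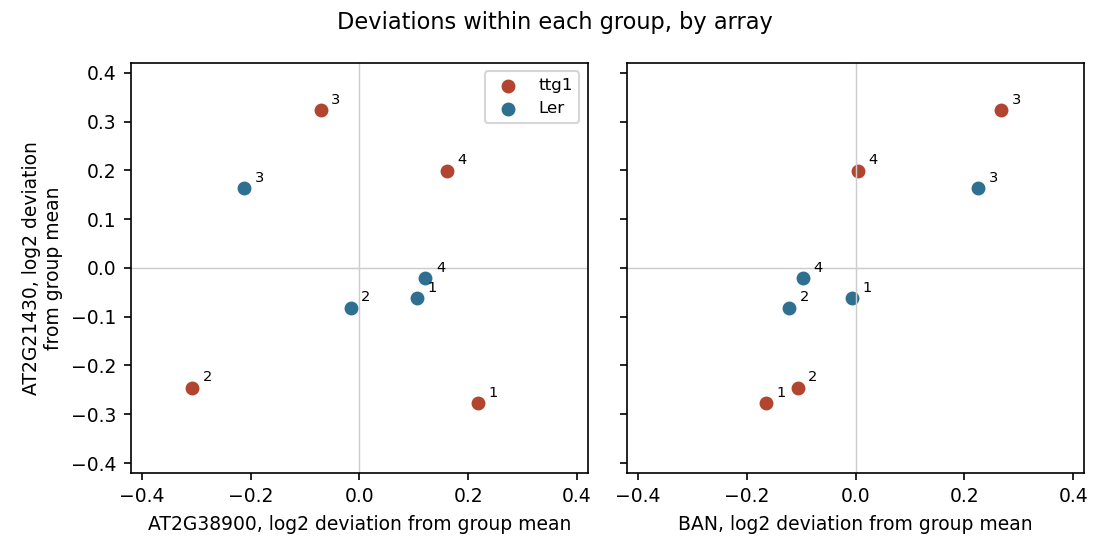
Deviation from the mean of the genotype, on a log2 scale, of AT2G21430 (y axis) against that of AT2G38900 (left) and BAN (right); each point is an array numbered by replicate, red for ttg1 and blue for Ler. Over the 8 arrays r is -0.06 for AT2G38900 and 0.857 for BAN.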

How the data were processed

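Total RNA of 8 samples was hybridised to 1 ATH1 array each. The deposited log2 values were made by the authors with RMA, per the submitters' processing notes; probe set medians across the arrays were all 0 (within 5e-07), a centring found from the values, so signal over background is unknown. Of 22810 probe sets 64 controls were left out. Genes came from the platform annotation, 1 gene for 13513 probe sets, several for 503 and none listed for 8730; 13436 of the 13513 matched RefSeq's table of genes (TAIR10.1), used for symbols, synonyms and gene order only. limma 3.58.1 (lmFit and eBayes, run in R 4.3.3) gave the two-sided test of ttg1 minus Ler for every probe set on all 8 arrays without covariates, with Benjamini-Hochberg adjustment over all 22746 probe sets and a threshold of 0.05. On simulated data of that size it called 21 of 50 probe sets lowered by 0.5, 42 of 50 by 1, 49 of 50 by 2 and 50 of 50 by 4, and 15 of 22546 unchanged ones. The simulated noise was normal, independent between probe sets and equal across arrays, whereas the real arrays had weights from 0.348 to 1.84. These counts therefore check the code and do not give the error rates on these arrays. Nothing in the labels says that replicates came from separate plants beyond the word biological, so the p-values reflect only how these samples vary.

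The genes and the lists were chosen with earlier results of these data known. The 11 lists of proteases and inhibitors and 4 of tissue markers were written by locus from general knowledge of the families, and 5 more were searched as words in gene synonyms. Named were all measured genes on the potato type I inhibitor and RD19 subfamily lists. From each other list up to 4 called genes were named or, with fewer than 2 called, the 2 of smallest adjusted p. Also named were called neighbours within 5 gene positions, and the 5 nearest genes by each measure of likeness. The alternatives were centring of arrays on their medians, quantile normalization, the replicate number as a block, robust eBayes, array weights, a threshold of 0.01, and each array left out in turn; added after seeing the data was the omission of ttg1 replicates 1 and 4 together, which have the smallest array weights. A filter on dim probe sets was planned and not run, since levels are not in the values. Sequences and promoter motifs were not used here.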

Additional observations from a re-analysis of the deposited data

Results flagged for a closer look

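In 6 of 92 groups of 4 arrays checked, 1 array lay far from the other 3; chance alone flags about 1 in 20 groups. Neither AT2G38900 nor AT2G21430 was among them. In ttg1, replicate 4 was low for AT2G21420, the neighbour of AT2G21430 (-0.772, others -0.399 to -0.322), for the cystatin gene AT5G05110 (-1.01, others -0.139 to -0.109) and for APA1, AT1G11910 (-0.0711, others 0.0411 to 0.0605). Replicate 1 was low for CYS1, AT5G12140 (-0.342, others -0.1 to -0.0765). In Ler, replicate 3 was high for AT4G16190 (0.212, others -0.0346 to 0.00725) and replicate 1 was low for MAP1C, AT1G13270 (-0.443, others -0.0594 to -0.0137).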

How the results depend on the processing

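The differences of AT2G38900 and AT2G21430 kept their direction in every alternative run. They moved by more than the spread between replicates only under quantile normalization, to -6.23 and -3.34, a step that forces all arrays to 1 distribution of centred values. Without 1 array at a time they lay between -8.16 and -7.99 and between -4.47 and -4.27. The 3 called neighbours and the absence of calls among the measured relatives held without any single array. Over all probe sets, 164 to 401 were higher and 509 to 854 lower without 1 array at a time, 786 were higher with array weights, and 112 were higher and 414 lower at a threshold of 0.01. That threshold left 2 inhibitors and 2 proteases lower. Without 1 array at a time, 3 to 4 inhibitors and 2 to 6 proteases were lower and 0 to 1 proteases higher.

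The replicate number as a block gave 687 higher probe sets, 7 lower inhibitors and 1 lower relative (AT3G46860, adjusted p 0.0429 in limma). The block also gave lower calls of CYS1, AT5G05110 and AT3G19400. The source labels of the 2 genotypes carry the same suffixes in the same order, and what the suffixes mean is not given, so whether same-numbered arrays share a harvest or batch is not known. The block was not made part of the fit because the labels do not say that a replicate number pairs arrays. Deviations of same-numbered arrays had r of 0.0769, 0.0318, -0.313 and 0.482, and in each genotype only replicate 4 correlated best with its own number. The ttg1 replicates 2 and 3 correlated best with Ler replicate 1, at 0.448 and 0.342. The embryo storage mean was lowest in replicate 1 and highest in replicate 4 of both genotypes, and whether same-numbered arrays share a seed stage was not tested. The likeness of AT2G38900 and AT2G21430 went from r = 0.995 to -0.0649 once genotype means were removed.

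Of 44 named genes, 30 kept their call and direction in all alternatives. Differences near 0 changed sign: AT4G16190 was -0.00773 with arrays centred on their medians, and without 1 array at a time it was -0.111 to 0.117, CP1 -0.0907 to 0.0791 and ALPHA-VPE -0.268 to 0.00349. AT4G04460 was 0.0208 without ttg1 replicates 1 and 4 together. Signal over background is unknown, and the number of arrays limits every value.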
